A study of Mus musculus with 9 samples.

Results

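In the livers of pair-fed, alcohol-fed and alcohol-fed, MNA-treated mice, 13593 transcripts were assembled that have a single exon, carry no earlier annotation and lie inside an intron of another gene. They are the rows of the lncRNA table that are called new by the assembler, have the class code i (wholly inside a reference intron) and have 1 exon. They made up 13593 of the 26083 lncRNA transcripts in the table, 13593 of the 18204 assembled ones and all but 52 of the 13645 assembled inside introns. The file named 3581 host genes for them.

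The mice were 8 weeks old and were fed liquid diets for 5 weeks, and the methods give the PF and AF mice as male. The pair-fed group (PF, n = 3) had the isocaloric control diet and the alcohol-fed group (AF, n = 3) the Lieber-DeCarli diet, in which the share of calories from alcohol was raised stepwise. The third group (AF with MNA, n = 3) had the same alcohol diet and intraperitoneal MNA at 50 mg/kg, and MNA is not spelled out in the labels. The labels give the strain of these last 3 mice as C57BL/7, C57BL/8 and C57BL/9, where all others carry C57BL/6. Each value is 1 liver library with ribosomal RNA removed and strand kept, expressed in FPKM (fragments scaled to the length of the transcript and the size of the library).

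An intron is transcribed together with its host gene, is cut out by the spliceosome and is then usually degraded within minutes to hours. Libraries that are depleted of ribosomal RNA rather than selected for poly(A) tails keep unspliced and partly spliced RNA beside finished transcripts, and an assembler can join reads inside an intron into a transcript of its own. Introns also hold independent non-coding genes, alternative start sites, hosts of small RNAs and circular RNAs made from lariats, so that the name of the class states a position and not an origin. In a bulk liver sample, fewer cells of a type and less RNA per cell cannot be told apart.

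The hepatocyte markers Alb, Ttr, Apoa1, Cps1 and Cyp2e1 summed to 15800 to 23700 FPKM in each library, against 44.8 to 82.4 FPKM for 5 Kupffer cell markers and 0.17 to 1.41 FPKM for 2 neutrophil markers, and no marker was at 0 over a whole group. The neutrophil markers summed to 0.73 to 1.41 FPKM in AF, above the 0.17 to 0.63 FPKM of PF and the 0.19 to 0.45 FPKM of AF with MNA. The 5 sinusoidal endothelial markers summed to 19.7 to 24.3 FPKM in PF, below the 24.9 to 36.2 FPKM of AF and the 30.4 to 33.8 FPKM of AF with MNA. The part of these cells in the comparisons below was not tested. The depth of the libraries, read from the ratio of junction counts to their scaled values, ranged 1.42-fold. At these depths 1 FPKM stood for a mean base coverage of 5.84 to 8.3.

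AF replicate 3 and AF with MNA replicate 1 stood apart from the other 7 libraries in this class of transcript, so the summed FPKM, the share of members above 0, the share of all lncRNA FPKM, the spread within groups and the totals past the threshold are also given without them. The other counts and measures include them, among them the gene lists, the members above 0 in all 6 libraries, the opposite-strand share, the ratio to intergenic transcripts and the groups that do not overlap or are listed at 0.

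Sequence is shown first for members that overlap a window around an annotated gene start. Of all members, 60 overlapped a promoter window, the 250 bases before to 50 bases after a RefSeq gene start (GRCm38.p6). By strand they were 50 of the 13010 on the same strand as their host (0.384%) and 10 of the 582 on the opposite strand (1.72%). In 7 cases an opposite-strand member overlapped the window of a start of its own host, the arrangement known for upstream antisense transcripts. The 3 of these with the highest mean FPKM are printed below with 1 more window, that of the Zrsr1 start. In it a member past the threshold of a comparison began on the strand of that start. Each line is a 300-base window read 5′ to 3′ on the strand of the named gene start, and capitals mark the bases that the member covers.
Pfkfb2, chr1:130715999-130716298, minus strand: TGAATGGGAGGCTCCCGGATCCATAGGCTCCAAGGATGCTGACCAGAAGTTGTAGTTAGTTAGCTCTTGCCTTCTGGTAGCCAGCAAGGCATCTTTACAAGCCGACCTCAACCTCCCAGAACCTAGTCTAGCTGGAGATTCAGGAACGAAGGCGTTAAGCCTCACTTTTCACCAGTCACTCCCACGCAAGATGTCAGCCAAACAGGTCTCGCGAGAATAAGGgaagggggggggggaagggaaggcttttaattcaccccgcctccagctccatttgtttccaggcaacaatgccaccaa
Set, chr2:30061746-30062045, plus strand: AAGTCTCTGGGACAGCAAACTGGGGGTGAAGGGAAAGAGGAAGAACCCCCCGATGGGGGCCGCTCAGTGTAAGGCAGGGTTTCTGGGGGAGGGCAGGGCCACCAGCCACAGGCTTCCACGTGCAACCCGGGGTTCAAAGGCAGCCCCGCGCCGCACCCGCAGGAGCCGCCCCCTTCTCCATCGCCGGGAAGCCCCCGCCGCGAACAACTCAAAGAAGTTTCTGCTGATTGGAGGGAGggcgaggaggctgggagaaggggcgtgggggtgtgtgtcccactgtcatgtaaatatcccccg
Zfp800, chr6:28261875-28262174, minus strand: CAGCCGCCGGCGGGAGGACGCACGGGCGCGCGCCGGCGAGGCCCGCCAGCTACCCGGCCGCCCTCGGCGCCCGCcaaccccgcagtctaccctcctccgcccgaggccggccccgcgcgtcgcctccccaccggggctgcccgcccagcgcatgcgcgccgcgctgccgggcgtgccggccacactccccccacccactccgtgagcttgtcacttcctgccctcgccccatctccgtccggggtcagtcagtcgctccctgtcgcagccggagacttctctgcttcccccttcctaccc
Zrsr1, chr11:22971755-22972054, plus strand: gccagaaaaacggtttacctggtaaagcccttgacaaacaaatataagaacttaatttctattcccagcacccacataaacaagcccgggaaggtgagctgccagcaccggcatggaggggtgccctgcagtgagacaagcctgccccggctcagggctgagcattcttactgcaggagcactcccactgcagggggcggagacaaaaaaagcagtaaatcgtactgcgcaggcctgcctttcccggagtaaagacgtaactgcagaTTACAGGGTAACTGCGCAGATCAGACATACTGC

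The members over these windows covered 222 bases in Pfkfb2, 237 in Set, 74 in Zfp800 and 33 in Zrsr1. None of them covered the start base itself. The covered bases lay upstream of it in Pfkfb2, Set and Zfp800 and downstream of it in Zrsr1. The GC content of the windows was 53%, 64.7%, 77.3% and 53% in the same order. The motif TATAAA, searched on both strands, was in none of the 4 windows and in 13.6% of all 32817 RefSeq windows of this length. CCAAT was in the Set window and in 37.4% of all windows. GGGCGG was in the Set, Zfp800 and Zrsr1 windows and in 35.6% of all windows. These are matches of letters and show no bound factor.

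Pfkfb2 encodes an enzyme that makes and breaks fructose 2,6-bisphosphate, the main activator of glycolysis. MSTRG.1947.1 in its start window was detected in all 9 libraries, at 1.85, 2.51 and 2.4 FPKM in PF, 2.99, 2.79 and 3.24 FPKM in AF, then 4.23, 2.1 and 2.1 FPKM in AF with MNA. The 3 AF values lay above the 3 PF values, and AF with MNA spanned both. The members in the Set and Zfp800 start windows were low and irregular, with means of 0.577 and 0.551 FPKM and 5 and 4 libraries of 9 listed at 0. MSTRG.6395.1 in the Zrsr1 start window was listed at 0 in 7 libraries and stood at 4.36 and 6.35 FPKM in AF replicates 2 and 3.

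Other annotated overlaps were rare. An annotated exon on either strand was touched by 174 members (1.28%), a microRNA hairpin by 0, and 2 members overlapped the 295 circular RNAs that the authors list as made from introns.

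Members were short and were spread over long introns. Their length ran from 201 to 28952 bases with a median of 357 (quartiles 263 and 651), next to a discard limit of 200 bases in the study's methods. Those of at most 300 bases numbered 5080 (37.4%), and 43 were longer than 10000 bases. The 52 assembled intron transcripts with more exons had a median of 1882 bases, and the single-exon assembled transcripts between genes (3225) and antisense to genes (946) had medians of 329 and 410.5 bases. In level, too, the members stood nearer the other single-exon classes than the spliced transcripts. The median of the mean FPKM over 9 libraries was 0.264 for the members, 0.244 and 0.297 for the other single-exon classes, and 1.15 for the spliced ones.

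**Figure D1:**
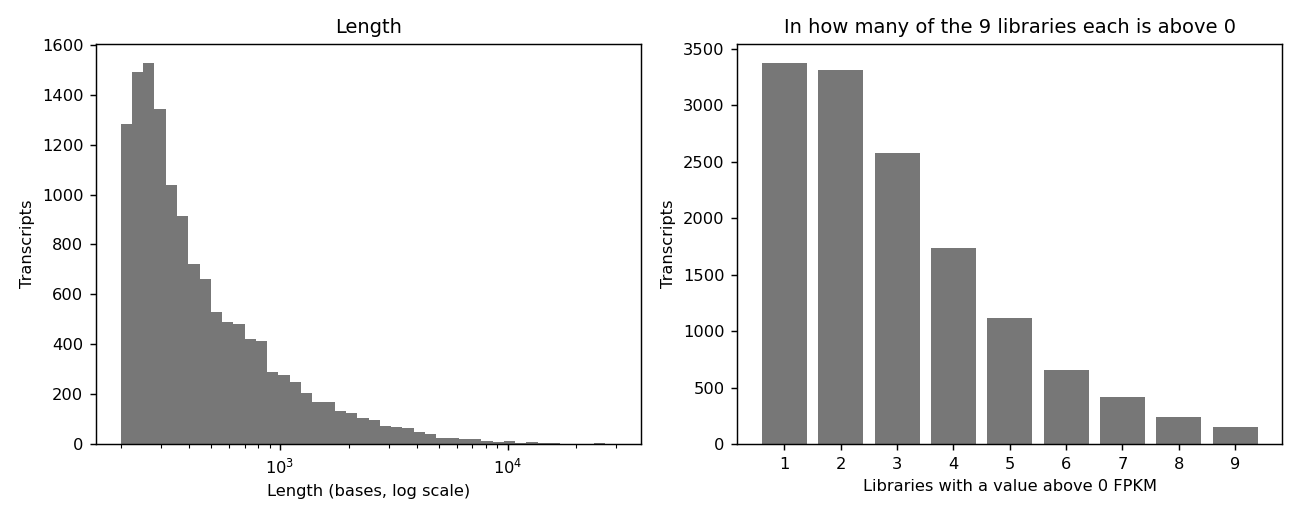
Left, number of single-exon intron transcripts by length in bases on a log axis. Right, number of transcripts by how many of the 9 libraries hold a value above 0 FPKM, from 3375 in 1 library to 150 in all 9.

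An intron of the GENCODE M21 annotation that holds the member was found for 13592 of the 13593. For 13203 it belonged to the gene named in the file and for 389 to a gene of another name, such as Lrmda for the file's 1700112E06Rik. The host was protein-coding for 12765 members (93.9%), and 13010 members (95.7%) lay on its strand.

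The holding introns had a median length of 26120 bases (quartiles 7138 and 82408), where the 248964 introns of protein-coding transcripts had a median of 1477 bases and 4.57% of them were longer than 26120 bases. Where several annotated introns held a member, the shortest was taken. Long introns have more bases in which a member can lie, and no length weighted by bases was computed. First introns held 5016 members (36.9%). Of all protein-coding introns 19.4% were first introns, and these carried 37.9% of the summed intron length, so the share of members in first introns was close to the share of bases there.

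Along the intron, the members on the host strand thinned towards the 3′ end. With the intron cut into 10 equal segments, the first 5 held 7869 of 13010 of their centres (60.5%), with 11.2% in segment 1, 13.1% in segment 2 and 4.14% in segment 10. The opposite-strand members did not have this slope, with 265 of 582 (45.5%) in the first 5 segments, 5.33% in segment 1 and 9.11% in segment 10. Few members abutted a splice site: 306 lay within 100 bases of the 5′ site and 211 within 100 bases of the 3′ site, and the median distances were 7673 and 12122 bases. A member covered a median of 1.85% of its intron, and 19 covered more than 80% of it.

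**Figure D2:**
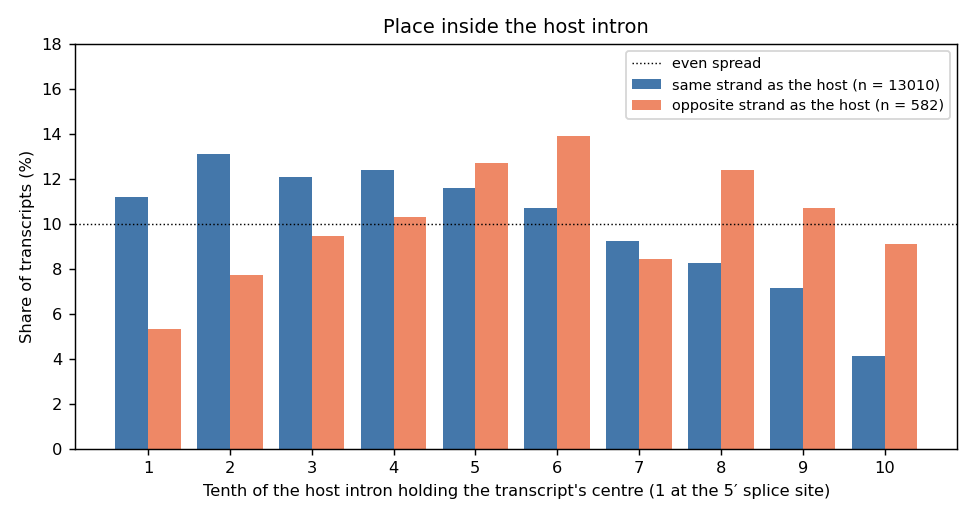
Share of transcripts (%) by which of 10 equal segments of the host intron holds their centre, counted from the 5′ splice site, for 13010 transcripts on the host strand and 582 on the opposite strand. The dotted line is an even spread. The host-strand bars stand at 11.2% in segment 1 and 13.1% in segment 2 and drop to 4.14% in segment 10.

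Members lay together in the same introns. Of 6679 introns with a member, 2030 had more than 1 and held 8943 members (65.8%), 170 had 10 or more, and the fullest had 80. The distance between neighbours on 1 strand of an intron was 2841 bases in the median (quartiles 1172 and 6613), and 598 of 6861 such distances were under 500 bases. Members of 1 intron are counted here one by one, and whether they are independent of each other was not tested.

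The 5 host genes with the most members are all among the very long genes of the mouse. Fhit, a diadenosine polyphosphate hydrolase at a fragile site, held 133 on chromosome 14. Exoc4, a subunit of the exocyst that tethers secretory vesicles, held 112 on chromosome 6. The file's 1700112E06Rik held 105, Prkg1, the cGMP-dependent protein kinase, 103, and Ank3, which encodes the membrane adaptor ankyrin G, 84. In these 5 genes 133, 112, 102, 103 and 84 members were on the host strand.

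The summed FPKM of the Fhit members was 18.3, 26.5 and 29.9 in PF, 31.2, 28.2 and 62.3 in AF, then 103, 9.7 and 19.8 in AF with MNA. The Fhit gene entry itself stood at 0.25, 0.38 and 0.29, then 0.39, 0.42 and 0.57, then 0.22, 0.43 and 0.46 FPKM in the same libraries. The library with the highest sum of members thus had the lowest level of the host. In Exoc4 the sums were 31.9, 26.3 and 32.5 in PF, 35.2, 15.5 and 57.7 in AF, then 71.3, 14.8 and 18.7 in AF with MNA, with the host between 1.24 and 1.95 FPKM throughout. In 1700112E06Rik the sum ran from 9.84 FPKM in PF replicate 1 to 77.9 FPKM in AF replicate 3, in Prkg1 from 16.3 FPKM in AF with MNA replicate 2 to 80.1 FPKM in replicate 1, and in Ank3 from 12 FPKM in PF replicate 1 to 66.8 FPKM in AF with MNA replicate 1. In all 5 host genes AF replicate 3 and AF with MNA replicate 1 held the 2 highest sums.

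The most abundant single member of each of these genes did not follow its sum. Of the 5, only the one in 1700112E06Rik had its highest value in either of those 2 libraries. The Fhit member MSTRG.12942.1 ran from 0.449 to 1.89 FPKM, with 1.65 FPKM in AF replicate 3 and 1.13 FPKM in AF with MNA replicate 1. In Exoc4 MSTRG.35372.1 reached 1.46 FPKM in PF replicate 1, against 0.683 and 0.633 FPKM in those 2 libraries. The leading members of 1700112E06Rik (MSTRG.13382.1), Prkg1 (MSTRG.22323.1) and Ank3 (MSTRG.4830.1) had highest values of 1.92, 1.67 and 1.87 FPKM, and each of these 3, like the Exoc4 member, was listed at 0 in at least 1 library. None of the 5 was past the threshold in either comparison.

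Hosts of members were mostly genes of low level in liver. Over the 3426 host genes with an entry in the gene table the median was 1.03 FPKM (quartiles 0.416 and 2.06). Of 6361 named genes between 1 and 5 FPKM, 1561 (24.5%) had a member, and of 953 named genes at 20 FPKM or more, 21 (2.2%) had one. Member level and host level went together weakly over the 13093 members with a host entry (Spearman's rank correlation 0.245, a description across transcripts that share libraries and hosts). The median member stood at 0.341 of its host, and 1968 members (15%) had a higher mean FPKM than their host.

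Of the 8 members of highest level, 6 were above 0 in every library and 2 were listed at 0 in a single one. Eci2 encodes a peroxisomal isomerase for the oxidation of unsaturated fatty acids, and its member MSTRG.11369.1 stood at 17.6, 32 and 25.6 FPKM in PF, 0, 28.3 and 27.7 in AF, then 33.7, 29 and 36.1 in AF with MNA. This member overlapped an annotated exon on its own strand, and the part of that exon in its level was not tested. AF replicate 1 was listed at 0 while the gene entry of Eci2 read 6.87 FPKM there, within its range of 6.76 to 13.3. Neither comparison passed the threshold for it (adjusted p = 0.598 and 0.591 by limma).

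Tlcd2 encodes a membrane protein that affects lipid composition, and MSTRG.7542.1 filled nearly all of its intron 1, leaving 108 bases at the 5′ end and 15 at the 3′ end of 1937. Its values were 9.64, 11.5 and 10.1 FPKM in PF, 9.9, 11.4 and 11.1 in AF, then 11.3, 0 and 13.3 in AF with MNA. The host ran between 10.8 and 14.3 FPKM, so this member was near its host in level and again had 1 zero. In Dlgap2, a scaffold protein of synapses, MSTRG.40841.1 stood at 7.07 to 10.8 FPKM in every library while the host was at 0.05 FPKM or below.

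Both 0610043K17Rik members lay in intron 3 of that gene on chromosome 4, 958 and 973 bases long. MSTRG.30238.1 read 15.5, 17.1 and 23.7 FPKM in PF, 42.3, 8.25 and 16.3 in AF, then 11.2, 5.78 and 9.07 in AF with MNA, and MSTRG.30240.1 followed with 9.21, 9.6 and 12, then 18.6, 3.9 and 8.42, then 7, 2.84 and 4.73 FPKM. For both, AF replicate 1 was the highest of the 9 libraries, and neither passed the threshold. The log2 ratio of AF with MNA to AF was -1.36 and -1.09, with an adjusted p of 0.591 for both, and it was -0.5 and -0.34 without AF replicate 1.

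Of the other 3, the member in Znrf3, a ubiquitin ligase that removes Wnt receptors, ran from 3.02 to 16.1 FPKM with its highest value in AF replicate 3. The Gm21092 member ran from 6.44 to 11.9 FPKM. The one in Zc3hav1, an antiviral RNA-binding protein, ran from 4.31 to 9.34 FPKM. These 3 were above 0 in all 9 libraries and passed the threshold in neither comparison.

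Most members were seen in few libraries. A value above 0 FPKM was given in 1 library for 3375 members (24.8%), in 3 or fewer for 9268 (68.2%) and in all 9 for 150 (1.1%). Members above 0 in all libraries had a median length of 1006 bases, and those in 1 library 278 bases. A mean of at least 1 FPKM was reached by 430 members (3.16%) and of at least 5 FPKM by 15. Among the 76 members with 3 libraries at 3 FPKM or more, 46 were nevertheless listed at 0 in some library. Whether such a 0 stands for a low level was not tested.

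For the 430 members that reached 1 FPKM on average, the coefficient of variation among the 3 libraries of a group, where the group was not at 0, had a median of 53.6% in PF, 57.7% in AF and 64.1% in AF with MNA. For the 806 known lncRNA transcripts of that level it was 21.9%, 29.9% and 23.6%. Without AF replicate 3 it was 41.6% for the members in AF and 21.5% for the known transcripts, and without AF with MNA replicate 1 it was 39.8% and 15.2% in AF with MNA.

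Per library, the members summed to 3174, 4344 and 4850 FPKM in PF, 3724, 4162 and 9331 FPKM in AF, then 8854, 2408 and 3398 FPKM in AF with MNA. AF replicate 3 and AF with MNA replicate 1 were thus 2.51 and 2.38 times the median of the other 7 (3724 FPKM), and the groups overlapped. The means were 4123 ± 860 (SD, n = 3) in PF, 5739 ± 3120 in AF and 4887 ± 3470 in AF with MNA. Neither AF against PF (p = 0.7) nor AF with MNA against AF (p = 0.5) differed beyond the spread in an exact two-sided permutation test, whose smallest p at 3 against 3 is 0.1. Without AF replicate 3 the difference between AF and PF was -180 FPKM in place of 1620. Without both high libraries the difference between AF with MNA and AF was -1040 FPKM (exact permutation p = 0.333, where 2 against 2 allows no lower p).

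The share of members above 0 FPKM was 25.4%, 31% and 31.7% in PF, 29.2%, 32.5% and 48% in AF, then 48.9%, 24.2% and 26.6% in AF with MNA. The same 2 libraries were high, and the others lay between 24.2% and 32.5%. The exact permutation p was 0.4 for AF against PF and 0.6 for AF with MNA against AF. Without AF replicate 3 the AF share exceeded the PF share by 1.46 percentage points in place of 7.19. Without both high libraries the difference between AF with MNA and AF was -5.43 points.

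The 2 libraries also held most of the members that occur once: 968 were above 0 in AF replicate 3 alone and 1084 in AF with MNA replicate 1 alone, together 60.8% of the members seen in 1 library. In the other 7 libraries 2342 members (17.2%) were listed at 0 throughout.

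The excess of the 2 libraries went with length. Members of 201 to 250 bases summed to 4.33 times the median of the other 7 libraries in AF replicate 3 and 3.78 times in AF with MNA replicate 1, those of 301 to 600 bases to 2.45 and 2.41 times, and those over 2000 bases to 1.62 and 1.4 times. Opposite-strand members held 4.17% and 4.01% of the summed FPKM there and 3.48% to 4.73% in the others. The centre weighted by FPKM lay at 0.432 and 0.428 of the intron against 0.419 to 0.43, so that AF replicate 3 was the highest by a small margin. The sum over members was 4.01 and 4.67 times the sum of the single-exon intergenic transcripts in these 2 libraries, and 3.33 to 4.54 times in the other 7.

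Of the measures per library, 2 separated groups without overlap. The ratio of members to single-exon intergenic transcripts was 4.54, 4.19 and 4.42 in PF against 3.86, 3.33 and 4.01 in AF (exact permutation p = 0.1, the smallest possible). The opposite-strand share was 4.73%, 4.72% and 4.17% in AF, then 4.01%, 4.01% and 3.88% in AF with MNA (exact permutation p = 0.1). In the other comparison each of them overlapped (exact permutation p = 0.2 for both). These p-values are not adjusted for the 8 measures tested per comparison.

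The other assembled single-exon classes were high in the same 2 libraries. Known lncRNAs differed far less, at 1.13 times the median of the other 7 in AF replicate 3, the highest of the 9 libraries, and 1.02 times in AF with MNA replicate 1. Single-exon intergenic transcripts summed to 2326 and 1895 FPKM in the 2 libraries against 602 to 1251 in the others, and antisense ones to 771 and 666 against 232 to 411. Known lncRNA transcripts summed to 8119 and 7336 FPKM against 6529 to 7805. In order of depth the 2 libraries were number 3 and number 1, and AF with MNA replicate 2, which was number 2, had the lowest sum of members. The part of depth in this difference was not tested.

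**Figure D3:**
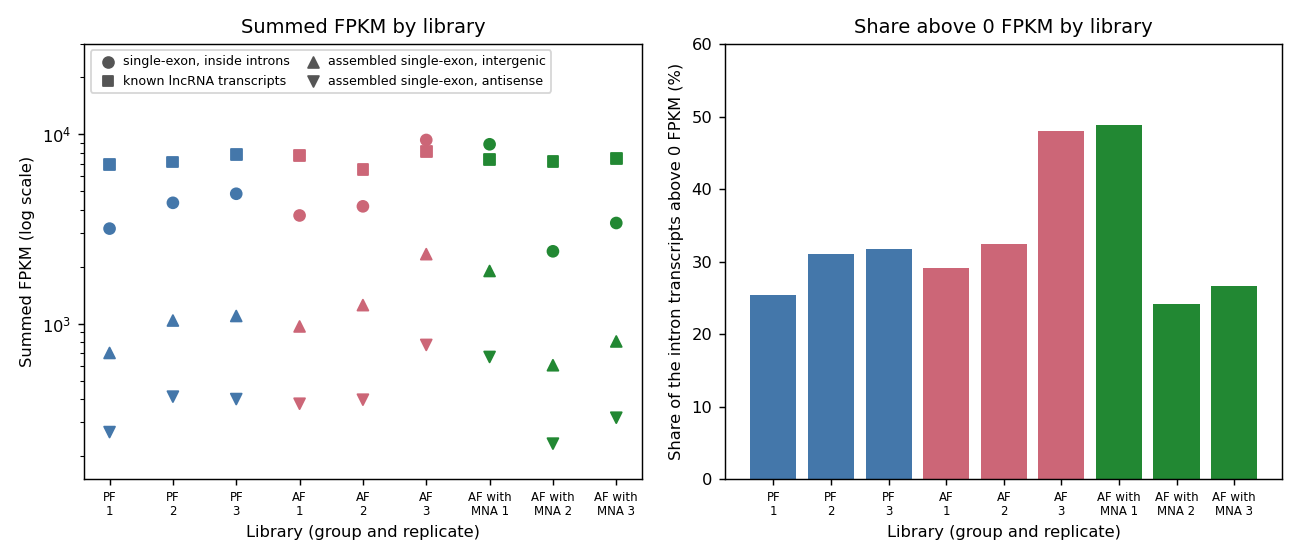
Left, summed FPKM (log axis) of the single-exon intron transcripts, known lncRNA transcripts and the other assembled single-exon classes in each of the 9 libraries. Right, share (%) of the intron transcripts above 0 FPKM. Blue is PF, red AF and green AF with MNA. AF replicate 3 and AF with MNA replicate 1 are the 2 highest in the 3 assembled single-exon classes, and stand at 1.13 and 1.02 times the median of the other 7 in the known one.

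As a share of the FPKM of all lncRNA transcripts, the members held 27.2%, 31.9% and 32.7% in PF, 27.6%, 31.4% and 43.7% in AF, then 43.7%, 18.3% and 24.9% in AF with MNA. Again the groups overlapped and the exact permutation p was 0.7 for AF against PF and 0.6 for AF with MNA against AF. Without AF replicate 3 the difference between AF and PF was -1.04 percentage points in place of 3.69. Without both high libraries the difference between AF with MNA and AF was -7.95 points.

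The comparison of AF with PF asks which of these transcripts change with alcohol feeding. Of 10805 members with a mean of at least 0.1 FPKM, 250 (2.31%) were past the threshold, which was an unadjusted p under 0.05 by limma and a ratio of the group means beyond 2-fold. Over all 18310 lncRNA transcripts tested, 2.47% were past it, so the members' share was near the background. The members are 10805 of these transcripts, and every share given for all transcripts includes the members. By direction 159 members were higher (1.47% of those tested, against 1.41% of all transcripts) and 91 were lower in AF (0.842% against 1.06%). No member had a Benjamini-Hochberg adjusted p under 0.05, the lowest was 0.11, and 253 had an unadjusted p under 0.05, by limma. Over all transcripts 3 had such an adjusted p (0.0164%).

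In 199 of the 250 the groups did not overlap. Over all members tested 4.02% did not overlap, against 6.23% of all transcripts. For 148 of the 250 (59.2%) 1 group was listed at 0 in all 3 libraries, PF in 102 and AF in 46. Only 288 tested members were above 0 in all 6 libraries, and 8 of these were past the threshold (2.78%).

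The split depended on scaling and on single libraries. The median fitted difference of the tested members on the log2(FPKM + 1) scale was 0.25, that of all transcripts tested 0.14 and that of known ones -0.02. With libraries scaled to the same median the higher and lower members were 143 and 140, with libraries scaled to the same sum over members 128 and 170, and with library size as a covariate and no moderation of the variances 232 and 72. Leaving out PF replicate 1 gave 104 and 129, leaving out PF replicate 2 gave 102 and 106, and leaving out PF replicate 3 gave 118 and 95. Leaving out AF replicate 1 gave 273 and 63, leaving out AF replicate 2 gave 289 and 54, and leaving out AF replicate 3 gave 195 and 89. The median fitted difference was -0.14 without AF replicate 3. Which direction was more frequent is therefore not settled by these libraries.

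**Figure D4:**
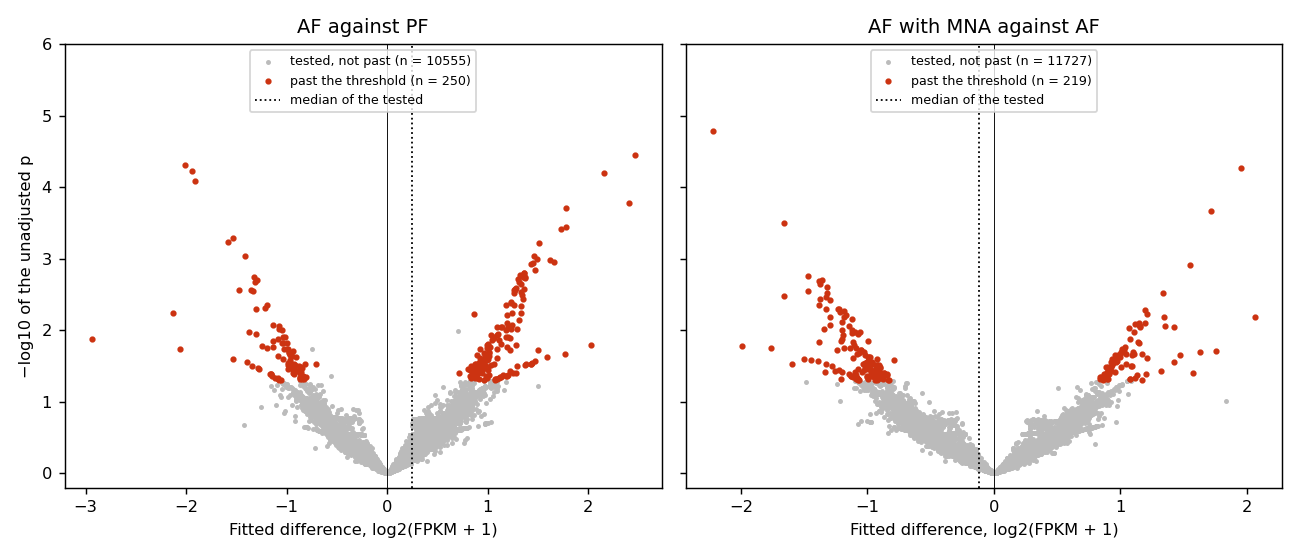
Fitted difference on the log2(FPKM + 1) scale (x axis) against −log10 of the unadjusted p from limma (y axis) for the single-exon intron transcripts tested, AF against PF on the left and AF with MNA against AF on the right. Red points are the 250 and 219 past the threshold, and the dotted line is the median of the tested, 0.25 and -0.12.

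The 6 members of lowest p that were higher in AF are given first, with their hosts. Cyb5b encodes a cytochrome b5 of the outer mitochondrial membrane. MSTRG.42624.1, 1946 bases in its intron 1 at chr8:107152406-107154351, was without a value above 0 in PF and stood at 3.36, 3.26 and 8.01 FPKM in AF (fitted difference 2.46 ± 0.34 SE, adjusted p = 0.11). Where a group is at 0 throughout, the size of the fitted difference is set by the pseudocount of 1. With 0.1 it was 5.51 for this member, 5.14 for the Ciapin1 member and -4.96 for the Pxn member given further on. The adjusted p by limma was then 0.0302, 0.0368 and 0.0463 in the same order. In AF with MNA the Cyb5b member was at 6.59, 0 and 0 FPKM, so that group reached both others. The Cyb5b entry itself varied widely, at 6.16, 57.6 and 78.3 FPKM in PF against 3.15, 14 and 67.9 FPKM in AF.

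Ciapin1 encodes a protein of cytosolic iron-sulfur cluster assembly, and its 297-base member MSTRG.42380.1 (chr8:94825543-94825839) was at 0 in PF and at 5.38, 3.21 and 2.31 FPKM in AF (2.16 ± 0.32, adjusted p = 0.129). In Gm27216 MSTRG.45220.1 was at 0 in PF and at 2.66, 2.93 and 9.49 FPKM in AF (2.41 ± 0.41, adjusted p = 0.257). For neither did any PF value reach an AF value, and the host entries ranged from 2.16 to 3.65 and from 2.51 to 3.52 FPKM over the same 6 libraries. Both were also past the threshold in the other comparison, lower in AF with MNA, at 0, 0 and 1.81 FPKM for Ciapin1 and 0, 4.43 and 0 FPKM for Gm27216 (adjusted p = 0.591 for both). The Gm27216 call was lost in 8 of 16 alternative settings, both scalings and the omission of either high library among them.

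Kdm5a removes methyl groups from lysine 4 of histone H3. Its member MSTRG.36830.1 (chr6:120434851-120436649) read 0, 0.58 and 0 FPKM in PF against 3.3, 2.57 and 3.15 FPKM in AF, a log2 ratio of 3.96 that rests on PF replicate 2 as the only PF library above 0 (fitted 1.78 ± 0.31, adjusted p = 0.267). The host had a log2 ratio of 0.08.

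In Tpd52l2 MSTRG.26511.1 was at 0 in PF and at 1.63, 2.15 and 3.87 FPKM in AF. In Yap1, the co-activator at the end of the Hippo pathway, the 2431-base MSTRG.43230.1 was at 0 in PF and at 3.28, 2.47 and 1.46 FPKM in AF (adjusted p = 0.368 for both). The Tpd52l2 member, at 1.48, 0 and 0 FPKM in AF with MNA, was past the threshold there too, lower than in AF (adjusted p = 0.591), a call that was lost without AF replicate 3. The Yap1 entry was 4.67, 5.41 and 8.56 FPKM in PF against 4.71, 4.19 and 5.3 FPKM in AF, so the PF and AF values of the host overlapped.

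Of the members that were lower in AF, the one in Pxn had the lowest p. Pxn encodes paxillin, an adaptor of focal adhesions. MSTRG.33668.1, 737 bases in intron 1 at chr5:115521495-115522231, read 2.41, 3.85 and 2.95 FPKM in PF against 0 in all 3 AF libraries (-2.01 ± 0.29, adjusted p = 0.129). The Pxn entry stood at 4.38, 2.6 and 4.52 FPKM in PF against 5.13, 3.71 and 5.14 FPKM in AF.

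Mkln1 encodes muskelin, part of a ubiquitin ligase, and MSTRG.35279.1 read 3, 3.32 and 2.3 FPKM in PF against 0 in the other 6 libraries (-1.94 ± 0.29, adjusted p = 0.129). The Mkln1 entry was lower in AF as well, at 2.49, 2.56 and 3 FPKM in PF against 2, 1.63 and 1.9 FPKM in AF, a log2 ratio of -0.54. B4galt1, a galactosyltransferase of the Golgi, held the 4783-base MSTRG.29307.1 at 3.6, 2.58 and 2.26 FPKM in PF against 0 in AF (-1.92 ± 0.3, adjusted p = 0.136). In AF with MNA the B4galt1 member was at 0, 0 and 4.33 FPKM, so 1 alcohol-fed library stood above every PF value. For the Mkln1 and B4galt1 members, the PF values lay close together and above every AF value.

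Values above 0 in AF were seen for 2 of those named. The Gm14232 member MSTRG.25442.1, on the strand opposite to its host, read 2.03, 2.48 and 3.25 FPKM in PF against 0.57, 0.0621 and 0 FPKM in AF, a log2 ratio of -3.62 (adjusted p = 0.472) that was -6.38 without AF replicate 1 and -3.03 without AF replicate 3. Cfhr3 encodes a complement factor H-related plasma protein made in liver. Its member MSTRG.2215.1 (chr1:139644243-139644849) was above 0 in all 9 libraries, at 4.53, 5.07 and 3.41 FPKM in PF, 1.34, 0.362 and 1.47 FPKM in AF, then 1.55, 2.82 and 2.31 FPKM in AF with MNA. The log2 ratio of AF to PF was -2.04 (fitted -1.41 ± 0.3, adjusted p = 0.598), and the Cfhr3 entry had a log2 ratio of -0.23, with 3.19, 2.46 and 2.32 FPKM in PF against 1.61, 1.39 and 3.8 FPKM in AF.

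Besides the Cfhr3 member, 7 others were past the threshold with a value above 0 in all 6 libraries, and they are named here after their values were seen. Higher in AF were the members in Mcm6, a subunit of the replicative helicase (MSTRG.1909.1), Nr6a1, an orphan nuclear receptor (MSTRG.23903.1), Olfr1033 (MSTRG.24621.1) and Wwox, an oxidoreductase at a fragile site (MSTRG.42950.1). The member MSTRG.24621.1 of Olfr1033, named for an odorant receptor, read 1.99, 2.1 and 2.72 FPKM in PF against 3.6, 6 and 5.46 FPKM in AF. Lower in AF were those in Zfp236 (MSTRG.21470.1), BC039771 (MSTRG.25714.1) and Plscr1 (MSTRG.45412.1). In all 8 the 2 groups did not overlap, with no adjusted p under 0.05.

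Most hosts of these members had ratios near 1. For the 153 higher members with a host entry the median log2 ratio of the host was 0.04 (quartiles -0.2 and 0.38), and 6 hosts were above 1. For the 82 lower members it was -0.14 (quartiles -0.37 and 0.08), and 5 hosts were below -1. The 250 members lay in 225 host genes, 34.8% of them in first introns.

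The comparison of AF with MNA against AF asks which of these transcripts change when MNA is added to the alcohol diet. It shares the 3 AF libraries with the comparison above. Of 11946 members tested, 219 (1.83%) were past the threshold, against 1.75% of all 19752 transcripts tested. Higher in AF with MNA were 76 (0.636% of members, 0.633% of all transcripts) and lower 143 (1.2% and 1.11%). The lowest adjusted p of a member was 0.161, none was under 0.05 by limma, and 219 had an unadjusted p under 0.05.

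The groups did not overlap in 164 of the 219, and in 3.59% of all members tested against 4.84% of all transcripts. In 116 (53%) 1 group was listed at 0 throughout, AF in 42 and AF with MNA in 74. The median fitted difference was -0.12 for members, -0.07 for all transcripts and 0 for known ones. Scaled to the same median, 111 were higher and 148 lower, and scaled to the same sum over members 147 and 130. With library size as a covariate and no moderation of the variances they were 98 and 109. The median was 0.24 without AF replicate 3. Without AF replicate 1 the counts were 45 and 209, without AF replicate 2 they were 48 and 237, and without AF replicate 3 they were 62 and 150. Without AF with MNA replicate 1 they were 49 and 114, without replicate 2 they were 134 and 69, and without replicate 3 they were 92 and 74. Without both high libraries 237 were past the threshold, 72 higher and 165 lower, of which 82 were among the 219.

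Of the members higher in AF with MNA, Rb1cc1 had the lowest p. Its product FIP200 starts autophagosome formation. MSTRG.34.1, 6357 bases in intron 15 of 23 at chr1:6253892-6260248, was at 0 in all 3 AF libraries and at 3.12, 2.52 and 2.99 FPKM in AF with MNA (1.95 ± 0.3, adjusted p = 0.361). In PF it was 2.09, 0 and 0 FPKM, and the host stood between 3.48 and 4.86 FPKM in all 9 libraries.

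The Pxn member was next in this direction, at 0 in AF and at 2.3, 2.07 and 2.49 FPKM in AF with MNA (1.71 ± 0.31, adjusted p = 0.591). Its 6 values outside AF lay between 2.07 and 3.85 FPKM. Zfp110 and Zfp729a encode zinc finger proteins. MSTRG.37597.1 in Zfp110 read 2.98, 1.9 and 1.18 FPKM in AF with MNA and MSTRG.11954.1 in Zfp729a 2.07, 1.04 and 1.55 FPKM, both at 0 in AF. In Dock1, an activator of Rac, MSTRG.40286.1 read 1.2, 1.25 and 1.44 FPKM in AF with MNA and 0 in the other 6 libraries (adjusted p = 0.591 for these 3 members).

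Of the members lower in AF with MNA, the one in Erc1, a scaffold protein of vesicle release, had the lowest p. MSTRG.36817.1 (chr6:119846665-119847765) read 2.83, 4.18 and 4.16 FPKM in AF and 0 in AF with MNA (-2.22 ± 0.3, adjusted p = 0.161). In PF it was 3.53, 0 and 0 FPKM. The member in Sec22a, of vesicle traffic from the endoplasmic reticulum, read 2.61, 2.01 and 1.93 FPKM in AF (MSTRG.17195.1), and the one in 4931406P16Rik 2.21, 2.28 and 1.02 FPKM (MSTRG.38217.1), both at 0 in AF with MNA.

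Acer3 encodes an alkaline ceramidase, and MSTRG.39372.1 stood at 1.4, 1.45 and 1.88 FPKM in AF and at 0 in all PF and AF with MNA libraries (past the threshold in both comparisons, adjusted p = 0.598 against PF). Msr1 is a scavenger receptor of macrophages, with MSTRG.41218.1 at 0.812, 1.19 and 1.21 FPKM in PF, 1.67, 2.06 and 1.17 FPKM in AF and 0 in AF with MNA. The Msr1 entry was 1.98, 1.21 and 1.21 FPKM in AF with MNA, so the host was measured in the libraries where its member was listed at 0. The adjusted p was 0.591 for these members of Sec22a, 4931406P16Rik, Acer3 and Msr1.

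**Figure D5:**
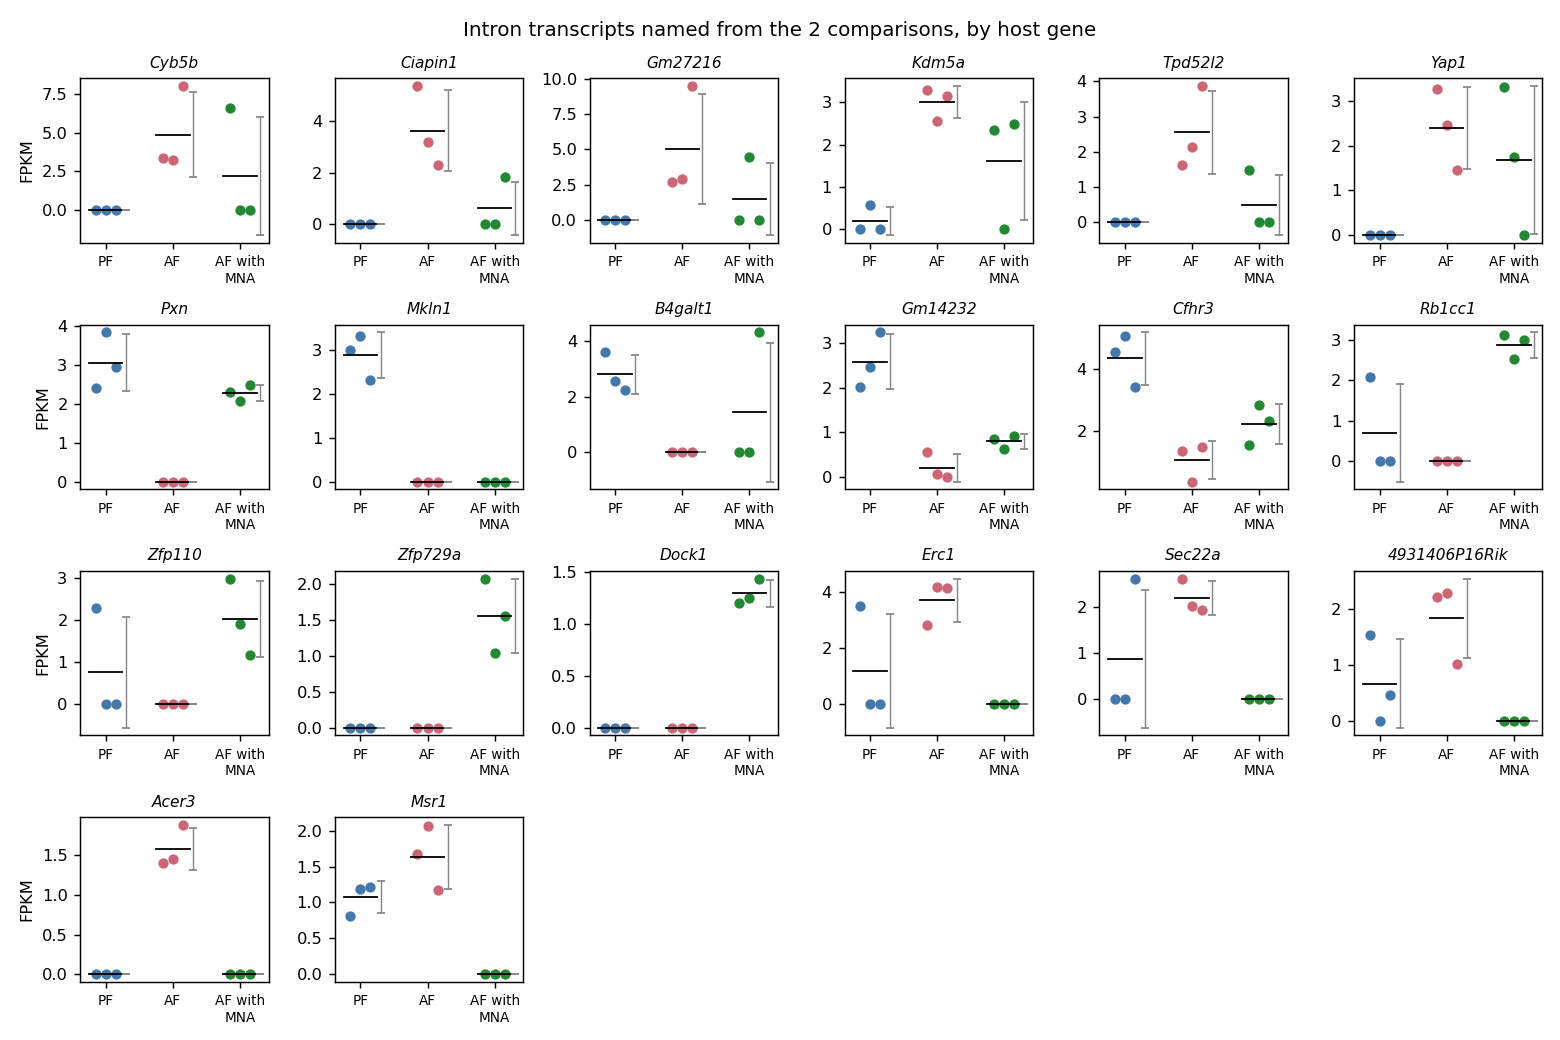
FPKM of the members named from the 2 comparisons, 1 panel per host gene and 1 point per library, with the group mean as a black line and the SD (n = 3) as a grey bar. In most panels 1 group is listed at 0 in all 3 libraries, as AF is for Pxn.

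With a value above 0 in all 6 libraries, 276 members were tested and 4 were past the threshold (1.45%, against 1.75% of all transcripts tested), named after their values were seen. The Wwox member MSTRG.42950.1 read 2.38, 1.44 and 3.08 FPKM in AF, then 0.954, 0.348 and 0.0936 FPKM in AF with MNA. The Gm20649 member MSTRG.45111.1 read 0.979, 0.886 and 1.04 FPKM in AF, then 1.83, 2.95 and 6.4 FPKM in AF with MNA. The others were MSTRG.21470.1 in Zfp236, higher, and MSTRG.5500.1 in RP23-234F23.4, lower.

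Most host entries had ratios near 1 in this comparison too. The median log2 ratio was -0.01 for the hosts of 72 higher members (quartiles -0.17 and 0.32) and -0.04 for those of 132 lower ones (quartiles -0.23 and 0.12). Above 1 were 4 hosts of the first and below -1 were 4 of the second.

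Of 485 genes of liver function or liver cell types in 8 lists, 30 held 100 members. In AF against PF, 79 of these were tested, 4 were higher and 1 lower past the threshold (6.33%, against 2.47% of all transcripts tested), and the median fitted difference was 0.4 against 0.25 for all members tested. In AF with MNA against AF, 93 were tested, 2 were higher and 2 lower (4.3%, against 1.75% of all transcripts tested), with a median of -0.02 against -0.12.

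Cytochrome P450 enzymes and their reductase, which oxidise drugs and ethanol, held 6 members, 3 in Cyp2c37 and 3 in Por. The leading one, MSTRG.34308.1 in Por, ran from 0.85 to 3.72 FPKM beside a host of 68.1 to 191 FPKM and passed no threshold. The opposite-strand Por member MSTRG.34307.1 read 0, 0 and 0.262 FPKM in PF against 1.73, 1.5 and 1.8 FPKM in AF (named after its values were seen).

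Plasma proteins made by the liver held 4 members, of which MSTRG.14782.1 in the complement gene C6 led with 0 to 1.69 FPKM, and none was past a threshold. The C6 entry read 28.2, 36.3 and 17.2 FPKM in PF against 2.98, 10.2 and 3.29 FPKM in AF, while its member read 0, 1.69 and 0.588 and then 0.147, 0.233 and 0.39 FPKM. Genes of fatty acid, lipid and cholesterol metabolism held 5. The leading one, MSTRG.36637.1 opposite to Cidec, a lipid droplet protein, read 2.9, 2.25 and 0 FPKM in PF, 3.31, 3.92 and 3.5 FPKM in AF, then 4.17, 3.42 and 4.17 FPKM in AF with MNA (adjusted p = 0.598 for AF against PF).

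In Acsl3, an acyl-CoA synthetase of lipid droplets, 2 members were past the threshold and are named after their values were seen. MSTRG.1297.1 was higher in AF than in PF and lower in AF with MNA than in AF. MSTRG.1299.1 was higher in AF with MNA.

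Amino acid, urea and one-carbon metabolism had 14 members, 8 of them in Aldh1l1, the folate enzyme of one-carbon metabolism, and none past a threshold. The leading MSTRG.36259.1 read 0.257, 1.82 and 0.71 FPKM in PF against 0 in AF (adjusted p = 0.598), where Aldh1l1 itself read 141, 137 and 151 FPKM in PF against 215, 191 and 198 FPKM in AF. Hepatocyte transcription factors and nuclear receptors had 47 members, 29 of them in Rora, a nuclear receptor of the circadian clock. Its leading member MSTRG.45017.1 ran from 0 to 1.98 FPKM and passed no threshold.

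Past the threshold in that list were MSTRG.44989.1 and MSTRG.44994.1 in Rora, higher in AF, and MSTRG.8250.1 in the thyroid hormone receptor gene Thra, lower in AF and higher in AF with MNA. These 3 are named after their values were seen. Alcohol and aldehyde metabolism had 6 members and conjugation and transport 4, with none past a threshold. Their leading members were MSTRG.5945.1 in Rdh16, a retinol dehydrogenase, at 0 to 2.39 FPKM, and MSTRG.35775.1 in Abcg2, an efflux transporter, at 0 to 2.04 FPKM.

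Markers of Kupffer, stellate, endothelial and immune cells held 14 members, 8 of them in Flt1, a VEGF receptor of endothelium. The leading MSTRG.34687.1 in Flt1 read 1.02, 1.94 and 0.195 FPKM in AF and 0 in AF with MNA, just inside the threshold (adjusted p = 0.591). This call was lost in 8 of 16 alternative settings. The sinusoidal endothelial markers themselves summed to 24.9 to 36.2 FPKM in AF and 30.4 to 33.8 FPKM in AF with MNA.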

How the data were processed

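Liver RNA of 9 mice (PF, AF and AF with MNA, 3 each) was sequenced in ribosomal RNA-depleted, strand-specific libraries. Per the labels, the authors' tools included cutadapt 1.9, HISAT2 and StringTie 1.3.4. The deposited lncRNA table gives FPKM and base coverage per transcript, by the authors, and FPKM per gene stands in another table. Transcripts under 200 bases or overlapping known mRNAs were discarded by the authors, and the deposited CPC and CNCI score of every member was below -1 (to rounding) and below 0. Junction counts deposited for circular RNAs, with their scaled signal, served only for relative depth. The read number and length are not given in the sources used here. Fold changes and p-values of the authors' own were not used, and 0 columns of unmapped samples were found.

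Coordinates matched GENCODE M21 (GRCm38), which was used to find the intron that holds each member. Promoter windows of 300 bases, their GC content and motifs came from a RefSeq table of gene starts (GRCm38.p6). A whole genome was not used here, and GC content of the members was not computed. Values were tested with limma 3.58.1 (R 4.3.3) with an intensity trend on log2(FPKM + 1), over every lncRNA transcript that averaged 0.1 FPKM or more in the 6 libraries compared, with Benjamini-Hochberg adjustment over all of them. A transcript was past the threshold at an unadjusted p under 0.05 and a log2 ratio of mean FPKM beyond 1 or -1. On simulated data, 100% of 200 transcripts changed 8-fold among 18404 were recovered for AF against PF. These 200 were drawn from levels above those of most members, and the simulation added no zeros. Recovery at the levels and zeros of the members was not tested. Single values per library were compared by exact permutation. Gene entries of the same name were summed for the level of a host.

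Members named were the 8 of highest mean FPKM, the 6 (AF against PF) or 5 (AF with MNA against AF) of lowest p per direction among those past the threshold whose groups do not overlap, the leading member of the 5 hosts with most members, and the leading member of each of 8 host lists. 1 of the members the rule picks is not reported here. The members and lists were chosen with earlier results of these data known. Nothing in the labels says that the libraries share a batch or a culture, and each p measures the spread between 3 mice per group. Alternatives tried were another pseudocount, filter, scaling, model and each library left out.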

Additional observations from a re-analysis of the deposited data

How the results depend on the processing

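Members past the threshold in AF against PF numbered 250. With a pseudocount of 0.1 they were 389, with all 9 libraries in 1 model 450, and with the fitted coefficient as the fold change 151. At the pseudocount of 0.1, 4 had an adjusted p under 0.05 by limma, the members in Cyb5b (0.0302), Gm27216 (0.0321), Ciapin1 (0.0368) and Pxn (0.0463). In AF with MNA against AF they numbered 219, and the same 3 settings gave 397, 427 and 134. The other settings, which were every transcript above 0, a mean of at least 0.5 FPKM, both scalings, no intensity trend and a library-size covariate without moderation, stayed within 1.5 times, from 201 to 304 and from 161 to 277. Leaving out 1 library gave 208 to 343 and 163 to 285. It kept 117 to 147 of the 250 and 88 to 117 of the 219. An adjusted p under 0.05 was reached in AF against PF also by 2 members at a mean of at least 0.5 FPKM (MSTRG.33668.1 in Pxn and MSTRG.35279.1 in Mkln1, 0.0466 for both), by 1 with all 9 libraries (MSTRG.33668.1 in Pxn, 0.0463), by 1 with the replicate block and by 1 without PF replicate 3, and in AF with MNA against AF by 1 without AF replicate 2. The cause was not tested.

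Deviations from the group means were at most weakly correlated between same-numbered replicates (-0.0306, 0.0139 and -0.0202, then 0.0967, -0.0457 and 0.064). Taken over mostly low members with many zeros, these correlations cannot decide whether the numbers pair the mice. A replicate block gave 243 and 183 members past the threshold, of which 201 and 164 were among the 250 and 219. With the block the adjusted p of the Cyb5b member MSTRG.42624.1 in AF against PF was 0.0356 in place of 0.11.

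Leaving out 1 library moved the difference in summed FPKM from -180 to 2620 (AF against PF) and from -2840 to 943 (AF with MNA against AF). The share above 0 moved from 1.46 to 10.9 and from -11.2 to 2.42 percentage points. The share of all lncRNA FPKM moved from -1.04 to 7 and from -12.7 to 0.0251 points. Of assembled transcripts only, the members' share was 1.79 points lower in AF than in PF (-1.79, in place of 3.69). For AF with MNA against AF the same setting gave -11.4 in place of -5.3 points, and leaving out the 10 transcripts of highest mean FPKM gave -3 points. The other settings for these 3 values kept their direction. The median FPKM over members was 0 in every library and gave no comparison. Without AF replicate 3 and AF with MNA replicate 1, a setting chosen after seeing the data like the spread without either of them, the second comparison stayed in its direction for all 3 values and gave 237 members past the threshold.

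For the 42 members named by rule, 1245 values were recomputed, none of those past the threshold reversed, 24 were no longer past it and 56 newly passed it. The cause was not tested. The losses were the Erc1 member in AF against PF (6 of 15 settings) and those of Gm27216 (8 of 16), Flt1 (8 of 16), Ciapin1 (1, the library-size covariate without moderation) and Tpd52l2 (1, without AF replicate 3) in AF with MNA against AF.

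Values rest on 3 mice per group, on levels mostly under 1 FPKM, and on many zeros. Reads shared between near-identical copies, and the unspliced share of each host, were not assessed.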
